A study of Drosophila melanogaster with 8 samples.

Results

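Tubulins are the building blocks of microtubules: an alpha-tubulin and a beta-tubulin protein pair into a dimer, dimers stack into the microtubule wall, and gamma-tubulin sits in ring complexes from which new microtubules start. Flies carry several genes for each kind, called paralogues, which differ in the tissue and stage where they are used. The 10 genes described here are those whose symbol in the deposited tables was alphaTub84B, alphaTub84D, alphaTub85E, alphaTub67C, betaTub56D, betaTub60D, betaTub85D, betaTub97EF, gammaTub23C or gammaTub37C, 4 alpha-tubulin, 4 beta-tubulin and 2 gamma-tubulin genes among 17562 genes in all. The rule itself uses the names alone, but these genes were chosen with earlier results of these data known.

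Poly-A RNA was sequenced from thoraces of adult male Drosophila, a body part made mostly of flight and leg muscle. Control flies (4 libraries) came from the tub-Gal80ts; dMef2-GAL4 driver line crossed to w[1118], and REPTOR[ACT] flies (4 libraries) from the same driver line crossed to UAS-REPTOR[ACT], a constitutively active form of the bZIP transcription factor REPTOR, which TORC1 signalling otherwise keeps inactive. Flies were raised at 18 °C, where the temperature-sensitive Gal80 blocks the driver, held 3 to 4 days after collection, and moved for 4 days to 29 °C before RNA was taken from 5 to 6 pooled thoraces per sample. Both groups carry tub-Gal80ts, whose expression is driven by a tubulin promoter, and dMef2-GAL4, which is active in muscle. Reads of thorax cells outside muscle are mixed with those of muscle, and in such bulk samples fewer cells of a type and less RNA per cell cannot be told apart. The labels do not say whether the samples came from separate crosses, so p-values measure the spread between these samples, which may be partly technical.

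The libraries held 26.79 to 50.03 M reads (M, 1e6). Levels are counts per 1e6 reads after TMM scaling (CPM). A gene "rose" or "fell" where the quasi-likelihood test of edgeR, run over 9903 genes, gave it an adjusted p (Benjamini-Hochberg) under 0.05. By that rule 44.2% of all tested genes changed, 24.8% higher and 19.4% lower. REPTOR, the check of the labels, lay at 92.5 to 131.8 CPM in control and 269.9 to 336.8 CPM in REPTOR[ACT] thoraces (log2 fold change 1.51). Mitochondrial genes took 30.4% of the reads in control replicate 1 and 38.7 to 42.2% in the other control libraries, against 31.6 to 34.1% in REPTOR[ACT], and control replicate 1 stood apart. Neither leaving it out nor scaling on nuclear genes alone changed the call of a tested tubulin gene. Of 12 adult muscle markers all were expressed, with a summed level of 26990 to 29390 CPM in control and 34030 to 37100 CPM in REPTOR[ACT], so the label of a muscle-rich tissue was met.

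Of the 10 tubulin genes, 8 had enough reads to be tested. In REPTOR[ACT] thoraces 4 of the 8 rose (betaTub60D, alphaTub84B, betaTub56D and betaTub97EF), 1 fell (alphaTub84D) and 3 were not called (alphaTub85E, alphaTub67C and gammaTub23C). Over all genes 24.8% rose and 19.4% fell, and the median log2 fold change was −0.0090, against 0.34 for the 8 tubulin genes. The 5 called genes were also those whose libraries did not overlap between groups, a separation seen in 41.9% of all tested genes (23.6% with REPTOR[ACT] higher, 18.3% lower). Among the 8, betaTub60D was the single gene past an absolute log2 fold change of 1 as well, as 4.83% of all tested genes were in the upward and 2.05% in the downward direction.

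**Figure D1:**
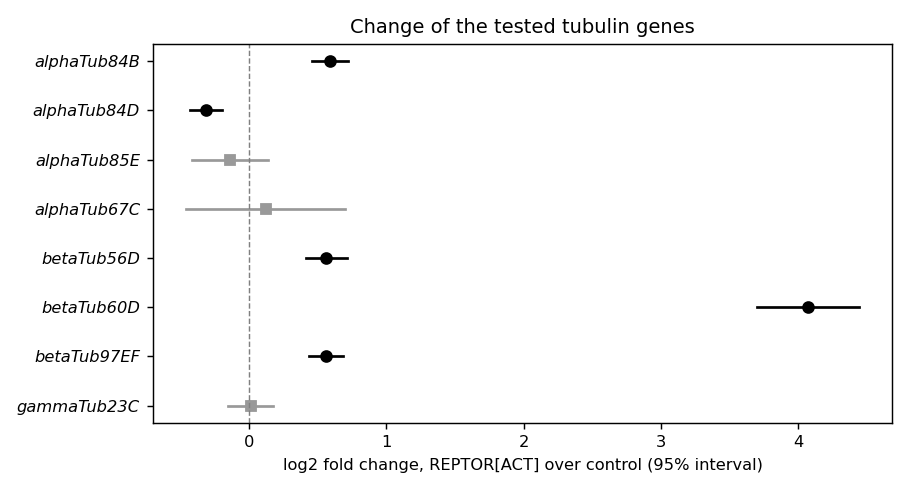
Log2 fold change of each tested tubulin gene (x axis, REPTOR[ACT] over control, points) with its 95% interval (bars) from edgeR; black circles passed the adjusted p of 0.05 and grey squares did not. betaTub60D stands at 4.07, alphaTub84B, betaTub56D and betaTub97EF between 0.56 and 0.59, and alphaTub84D at −0.31.

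Levels of different genes were compared per kb of exon, since a longer transcript yields more reads. In control thoraces alphaTub84B led with 381 ± 18.2 CPM per kb (SD, n = 4 here and below), followed by betaTub56D with 208 ± 10.4, alphaTub84D with 55.2 ± 1.86, betaTub97EF with 28.5 ± 0.756 and gammaTub23C with 10.3 ± 0.842 CPM per kb. Below them came betaTub60D with 3.85 ± 0.497 and alphaTub85E with 2.34 ± 0.157, whose libraries did not overlap, then alphaTub67C with 0.214 ± 0.0325 CPM per kb. betaTub85D (0.0770 ± 0.0474) and gammaTub37C (0.0334 ± 0.0232) were last, with overlapping libraries. In REPTOR[ACT] thoraces the order began again with alphaTub84B (573 ± 28.1 CPM per kb) and betaTub56D (307 ± 21.8), but betaTub60D stood next with 65.1 ± 13.3 CPM per kb. It lay above alphaTub84D (44.4 ± 1.13) in all 4 libraries, while the ranges of alphaTub84D and betaTub97EF (42.0 ± 1.90 CPM per kb) overlapped, although alphaTub84D was the higher of the pair in each of the 4 libraries, in replicate 2 by 44.3 to 44.2 CPM per kb. gammaTub23C (10.4 ± 0.540) and alphaTub85E (2.13 ± 0.326) came next, and alphaTub67C (0.235 ± 0.0512), gammaTub37C (0.179 ± 0.0203) and betaTub85D (0.0878 ± 0.0534 CPM per kb) followed, with each overlapping the next.

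**Figure D2:**
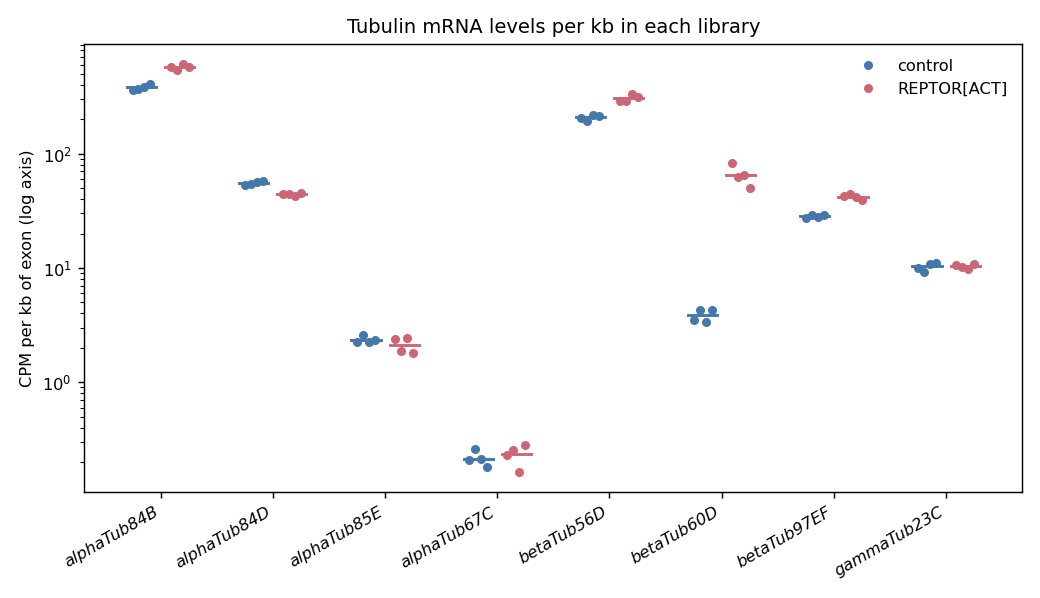
Level of the 8 tested tubulin genes (y axis, CPM per kb of exon, log axis) in each of the 4 control (blue) and 4 REPTOR[ACT] (red) libraries (points, replicates 1 to 4 from left to right), with group means as lines. betaTub60D moves from a mean of 3.85 to 65.1 CPM per kb, past alphaTub84D, betaTub97EF and gammaTub23C.

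betaTub60D (FBgn0003888) encodes the beta3-tubulin, known as the isotype of developing mesoderm and forming muscle and of some sensory organs. In BDGP6.54 it lies on chromosome 2R, 24305881 to 24313099, plus strand, with 2518 exon bases in 2 transcripts. Its level was 8.86, 10.7, 8.41 and 10.8 CPM in control replicates 1 to 4 and 208.1, 156.8, 163.6 and 127.3 CPM in REPTOR[ACT] replicates 1 to 4. Every REPTOR[ACT] library was thus far above every control library, and the lowest of them was still above 100 CPM. The means were 9.70 ± 1.25 and 164 ± 33.4 CPM, a 16.8-fold rise (log2 fold change 4.07, 95% interval 3.70 to 4.44, SE 0.164, adjusted p = 1.035e-07). Ordered by log2 fold change, it was number 21 of 9903 genes. These values rest on 1398 reads in the controls and 22702 in REPTOR[ACT]. Among all 17521 genes ranked per kb it moved from place 6165 to 6756 in the controls to place 665 to 1032.

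The spread of betaTub60D in REPTOR[ACT] thoraces was wider than that of its paralogues, with a coefficient of variation of 20.4% against 7.10% for betaTub56D and 4.52% for betaTub97EF. In the controls the same figures were 12.9%, 5.02% and 2.65%. The REPTOR[ACT] library with the most betaTub60D, replicate 1, also had the most REPTOR reads (336.8 CPM), but replicate 4, with the least betaTub60D, had the next most (305.9 CPM), ahead of replicates 2 (288.8 CPM) and 3 (269.9 CPM). Reads of the REPTOR transgene and of the native gene cannot be told apart here.

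betaTub56D (FBgn0284243), the beta1-tubulin used in nearly all fly cells, lies on 2R, 19447319 to 19451600, minus strand. Its level was 381, 364, 406 and 402 CPM in the controls and 537, 544, 623 and 589.7 CPM in REPTOR[ACT]. The lowest REPTOR[ACT] library lay above the highest control. With means of 388 ± 19.5 and 573 ± 40.7 CPM it rose 1.48-fold (0.56 on the log2 scale, SE 0.0673, adjusted p = 4.121e-05).

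betaTub97EF (FBgn0003890), a beta-tubulin whose use in larval tissues is known to respond to temperature, lies on 3R, 27967008 to 27988384, minus strand. It was at 51.6, 54.3, 52.5 and 54.5 CPM in the controls and at 79.6, 82.6, 77.8 and 74.1 CPM in REPTOR[ACT]. The groups were far apart relative to their spread, and the gene rose by 0.56 on the log2 scale (SE 0.0557, adjusted p = 9.853e-06). Its increase thus had nearly the size of that of betaTub56D: there were 0.137 ± 0.00839 betaTub97EF reads per betaTub56D read in control and 0.138 ± 0.0144 in REPTOR[ACT], with overlapping libraries (exact permutation test, 2-sided, p = 1). Both groups were kept at the same temperatures.

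betaTub85D (FBgn0003889), the beta2-tubulin of the male germ line and sperm tail, lies on 3R, 9408383 to 9410282, minus strand. It had 4, 3, 7 and 4 reads in the control libraries and 8, 3, 2 and 10 in REPTOR[ACT], 18 against 23 in all. That was too few to be tested, and most libraries were close to the 3 reads that a count of 0 allows. Other testis genes were likewise nearly silent, as 11 of 16 testis markers had a mean under 0.1 CPM over the 8 libraries, and the summed level of the list (174 to 238 CPM in control, 223 to 269 CPM in REPTOR[ACT]) was almost wholly that of bol, at a mean of 205 and 240.3 CPM.

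alphaTub84B (FBgn0003884), the main alpha-tubulin of fly cells, lies on 3R, 7086599 to 7088839, plus strand. It had 635, 651, 674 and 709 CPM in the controls and 1002, 941, 1060.4 and 1013 CPM in REPTOR[ACT]. Its promoter is the one commonly used in tub-Gal80ts lines, which both groups carry, and reads of such a transgene were not told apart from those of the gene. The groups did not overlap. Their means were 667 ± 31.9 and 1004 ± 49.2 CPM, and the gene rose by 0.59 on the log2 scale (SE 0.0607, adjusted p = 1.293e-05), or 1.504-fold. This was close to the change of betaTub56D: there were 1.72 ± 0.0656 alphaTub84B reads per betaTub56D read in control and 1.75 ± 0.0757 in REPTOR[ACT], and the libraries overlapped (exact permutation test, 2-sided, p = 0.6).

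alphaTub84D (FBgn0003885), which encodes a protein nearly identical to that of alphaTub84B, lies on 3R, 7530753 to 7532732, plus strand. It was the single tubulin gene that fell. Its level was 105.8, 106.8, 111.1 and 113.7 CPM in the controls and 88.5, 87.6, 85.1 and 90.5 CPM in REPTOR[ACT], so every REPTOR[ACT] library was below every control. The means were 109.4 ± 3.68 and 87.9 ± 2.23 CPM (−0.31 on the log2 scale, SE 0.0537, adjusted p = 0.0006016). alphaTub84B and alphaTub84D thus moved in opposite directions, and the number of alphaTub84B reads per alphaTub84D read went from 6.10 ± 0.1001 to 11.4 ± 0.731 (exact permutation test, 2-sided, p = 0.0286). How reads matching both genes were counted is not stated in the labels or methods, and the division of reads between these near-identical copies is uncertain. Summed, the pair took 99.5 ± 0.0472% of alpha-tubulin reads in control and 99.7 ± 0.0334% in REPTOR[ACT].

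alphaTub85E (FBgn0003886), an alpha-tubulin known from the nervous system's support cells, muscle attachment and testis, lies on 3R, 9731221 to 9733250, minus strand. Its level was 3.48, 4.01, 3.50 and 3.63 CPM in the controls and 3.71, 2.95, 3.81 and 2.82 CPM in REPTOR[ACT]. The groups overlapped, with replicates 2 and 4 of REPTOR[ACT] lowest (log2 fold change −0.14, 95% interval −0.42 to 0.14, adjusted p = 0.4007). alphaTub67C (FBgn0087040), the alpha-tubulin that the mother loads into the egg, lies on 3L, 9681268 to 9683370, plus strand. It was close to the detection limit in both groups, with 9 to 20 reads per control library and 8 to 16 per REPTOR[ACT] library (log2 fold change 0.12, 95% interval −0.46 to 0.70, adjusted p = 0.771), so a change of up to about that interval was not detectable at this depth.

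gammaTub23C (FBgn0260639), the gamma-tubulin of somatic cells, lies on 2L, 2972891 to 2974858, plus strand. Its level was 18.6, 17.1, 20.2 and 20.5 CPM in the controls and 19.8, 18.9, 18.0 and 20.2 CPM in REPTOR[ACT]. The groups overlapped throughout, and the log2 fold change was 0.011 (95% interval −0.16 to 0.18, adjusted p = 0.923), an interval that leaves out changes of the size of alphaTub84B's. gammaTub37C (FBgn0010097), the gamma-tubulin of the female germ line and early embryo, lies on 2L, 19183863 to 19185726, minus strand. It had 0, 4, 2 and 2 reads in the controls and 13, 7, 9 and 11 in REPTOR[ACT], 8 against 40 in all, so every REPTOR[ACT] library had more reads than any control. It was removed by the filter on low counts. Without that filter edgeR gave a log2 fold change of 2.31 (adjusted p = 0.00249), which depends on the small count added before taking logarithms. The 7 ovary markers did not move together. Of these, bcd had no read and osk was at 0 in all controls, swa was at 0.518 and 0.641 CPM, and grk rose from 29.3 to 67.2 CPM. The yolk protein genes had lower means in REPTOR[ACT], from 0.934 to 0.167 CPM for Yp1, 0.506 to 0.166 for Yp2 and 1.37 to 0.428 for Yp3, with Yp2 not tested and the others not called. The grk exons share 212 bases with Akap200 on the other strand, at 102.5 CPM, and their part in its level was not tested.

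The make-up of the beta-tubulin reads shifted towards betaTub60D. It took 2.01, 2.50, 1.80 and 2.31% of the reads of the 4 beta-tubulin genes in the control libraries and 25.2, 20.03, 18.9 and 16.1% in REPTOR[ACT]. The means were 2.16 ± 0.313% and 20.1 ± 3.82% (exact permutation test over 8 libraries, replicate numbers not used, 2-sided, unadjusted p = 0.0286, the smallest that 4 against 4 can give). In return the share of betaTub56D went from 86.0 ± 0.870% to 70.3 ± 4.03% and that of betaTub97EF from 11.8 ± 0.5997% to 9.64 ± 0.663%, though both genes rose in level. Each of these shares separated the groups fully (exact permutation p = 0.0286 for each). The share of betaTub85D, 0.0310% in control and 0.0200% in REPTOR[ACT], overlapped (exact permutation p = 0.371). Shares of a whole are tied to each other, so these are not separate results, and 13 shares and ratios were compared in all. The 95% Wilson intervals of the betaTub60D share in single libraries were 0.427 to 1.04 percentage points wide, for counting error only, narrower than the spread between REPTOR[ACT] libraries. Per kb of exon the betaTub60D share was 1.61 ± 0.235% in control and 15.7 ± 3.17% in REPTOR[ACT].

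The alpha-tubulin reads moved towards alphaTub84B. Its share was 85.5 ± 0.212% in control and 91.6 ± 0.444% in REPTOR[ACT], while alphaTub84D went from 14.01 ± 0.194% to 8.04 ± 0.458% (exact permutation p = 0.0286 for each). The share of alphaTub85E went from 0.469 ± 0.0397% to 0.303 ± 0.0395% without overlap (exact permutation p = 0.0286), although its level was not called. The share of alphaTub67C was 0.0446 ± 0.00804% and 0.0349 ± 0.00839%, with overlap (exact permutation p = 0.143). Per kb of exon alphaTub84B took 86.8% and 92.4%, and alphaTub84D 12.6% and 7.18%.

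**Figure D3:**
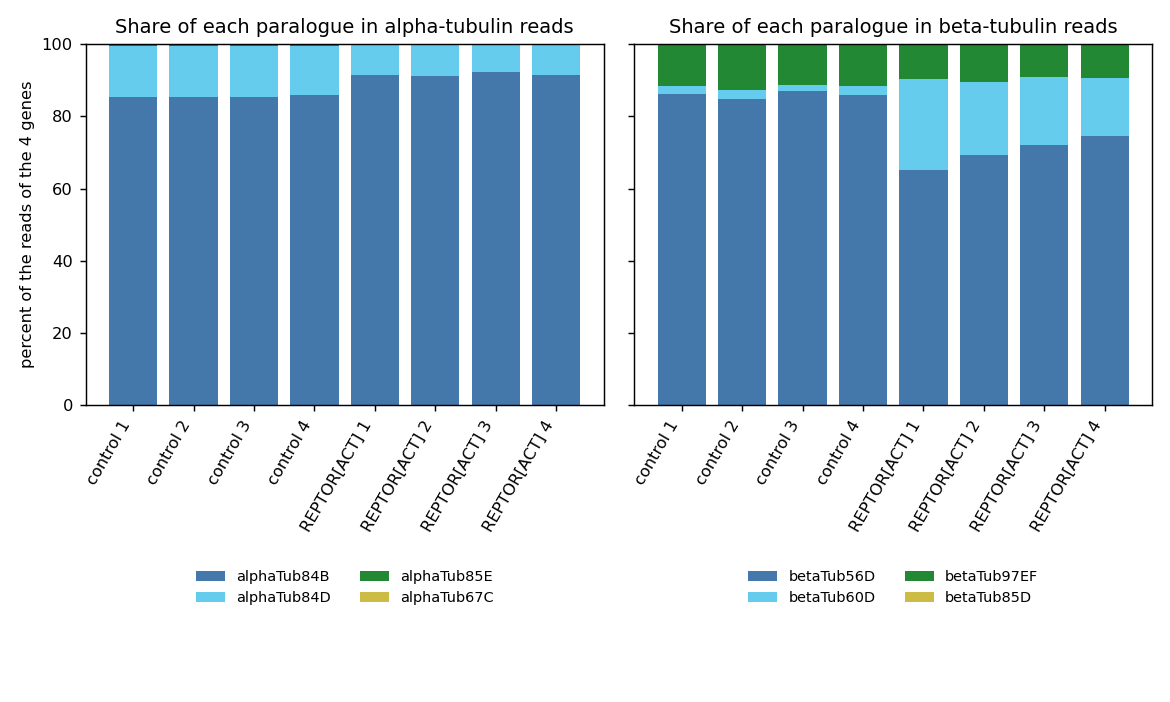
Share of each paralogue (y axis, percent of the reads of the 4 alpha-tubulin genes on the left and the 4 beta-tubulin genes on the right) in each library, stacked to 100%. The betaTub60D band is 1.80 to 2.50% in control and 16.1 to 25.2% in REPTOR[ACT] libraries; alphaTub85E, alphaTub67C and betaTub85D are too small to be seen.

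Summed over paralogues, alpha-tubulin had 781 ± 35.5 CPM in control and 1096 ± 48.7 CPM in REPTOR[ACT], 1.40 times as much. Beta-tubulin had 451 ± 19.1 and 816 ± 37.2 CPM, 1.81 times as much. Of the difference in beta-tubulin, betaTub56D made up 50.8%, betaTub60D 42.3% and betaTub97EF 6.94%. Without betaTub60D the beta-tubulin sum was 442 ± 19.4 and 652 ± 38.6 CPM, 1.48 times as much, close to the factor for alpha-tubulin. The number of alpha-tubulin reads per beta-tubulin read was 1.73 ± 0.0487 in control and 1.343 ± 0.0373 in REPTOR[ACT], with no overlap. Leaving betaTub60D out of the denominator gave 1.77 ± 0.0551 and 1.68 ± 0.0628, and these libraries overlapped. gammaTub23C and gammaTub37C together had 19.1 ± 1.56 and 19.5 ± 1.01 CPM. All 10 genes took 0.124 ± 0.00839% of the reads in control and 0.195 ± 0.0123% in REPTOR[ACT].

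**Figure D4:**
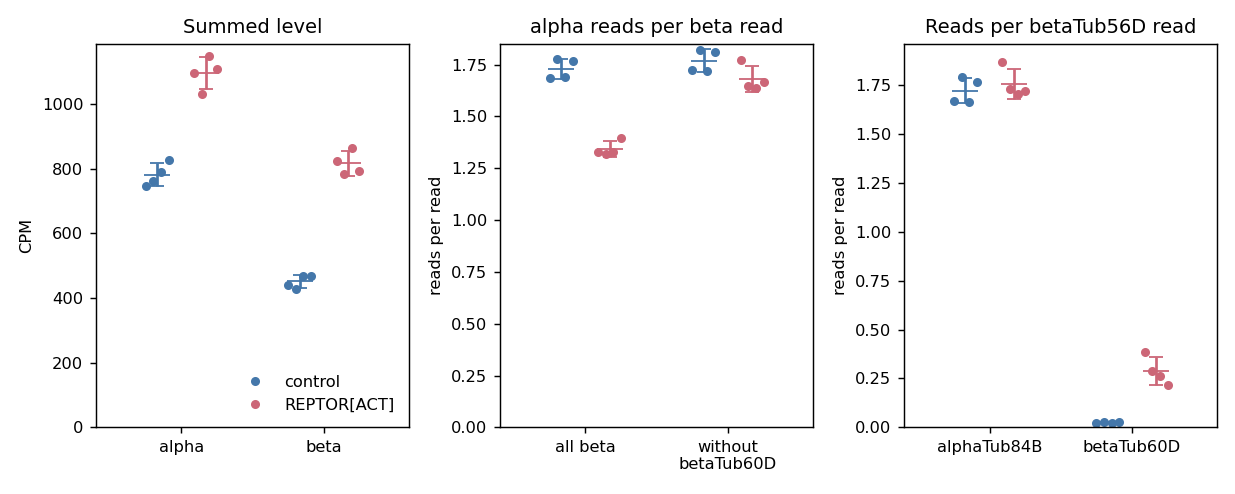
Summed alpha-tubulin and beta-tubulin levels (left, CPM), alpha-tubulin reads per beta-tubulin read with and without betaTub60D (middle) and alphaTub84B or betaTub60D reads per betaTub56D read (right) in each control (blue) and REPTOR[ACT] (red) library, with mean and SD. The alpha per beta ratio separates the groups (1.73 and 1.343) when betaTub60D is counted and overlaps (1.77 and 1.68) when it is not.

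New tubulin protein is folded by prefoldin, which hands it to the CCT chaperonin, and then by tubulin cofactors that assemble the alpha-beta dimer. In the list of tubulin folding genes 18 of 21 rose and 3 were not called, with a median log2 fold change of 0.66. Of all genes 24.8% rose, and their median was −0.0090. The lists were chosen with earlier results of these data known, so such counts are a description and no test. All 8 CCT subunit genes rose, by 0.56 to 1.89 on the log2 scale, and all 6 prefoldin genes by 0.43 to 1.78. CCT5 went from 41.2 ± 9.62 to 152.1 ± 17.9 CPM, CCT2 from 64.6 ± 10.9 to 151.9 ± 15.6 CPM, Pfdn4 from 14.2 ± 0.780 to 48.7 ± 3.02 CPM and Pfdn2 from 28.1 ± 0.9501 to 84.2 ± 4.197 CPM. CCT also folds actin and other proteins, and no value here separates its clients. Of 7 genes listed with the cofactors 4 rose, mlt by 1.11, CG1890 by 0.70, Tbce by 0.59 and TBCB by 0.38. The log2 fold changes of TBCC (−0.051), TBCD (−0.076) and Arl2 (0.065) did not pass the test. Which of the 7 act in dimer assembly was not tested. CCT5 shares 87 exon bases with EndoG, Pfdn4 41 with Membrin and Pfdn2 57 with Mocs1, each on the other strand. TBCB shares 193 with par-1, at 259.4 CPM, and Pfdn5 78 with CG5376, at 29.8 CPM, also on the other strand. So do Pfdn1 (49 with CG9154) and CCT7 (10 with CG9839). Whether counting used the strand is not stated in the labels or methods.

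Among genes of microtubule nucleation 9 of 17 rose and 2 fell (median 0.26), where 24.8% of all genes rose and 19.4% fell. Without control replicate 3, 7 of them rose and 3 fell. Although gammaTub23C was not called, 5 of 6 tested genes for its partners in the gamma-tubulin ring rose, by 0.19 to 0.49 on the log2 scale. Grip163 was at −0.20 and not called. Grip91 shares 269 exon bases with CG11151 (77.7 CPM), Grip75 200 with Cog4 (31.25 CPM) and Grip71 227 with Irk3 (4.45 CPM), each on the other strand. In control Grip91 was at 11.7, Grip75 at 14.1 and Grip71 at 2.22 CPM. The part of the neighbours' reads in these levels was not tested. Of 8 genes of augmin, the complex that starts new microtubules on the sides of old ones, 4 rose and 1 fell. dgt4 went from 1.58 ± 0.147 to 11.4 ± 2.65 CPM (log2 fold change 2.86), msd5 rose by 1.93, msd1 by 2.37 and dgt3 by 0.66, while dgt2 fell by 0.59. msd1 had 4 to 7 reads per control library and 13 to 54 in REPTOR[ACT], so it passed the filter on low counts through the REPTOR[ACT] libraries alone, and its count among the genes that rose is no support for a change of the group. All augmin genes but dgt4 were below 4 CPM in both groups, and dgt4 shares 130 exon bases with Tip60 and 34 with Nsun2 on the other strand. Plp, a centrosome scaffold gene, fell by 0.51 on the log2 scale, from 418 ± 30.9 to 293 ± 31.0 CPM, and cnn (−0.068) and spd-2 (0.013) of the same group were not called.

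Of 15 genes for proteins that bind or stabilise microtubules, 6 rose and 1 fell (median 0.11), beside 24.8% and 19.4% of all genes. Map205, which binds along microtubules, went from 150.1 ± 14.7 to 396.5 ± 27.6 CPM (log2 fold change 1.40, adjusted p = 1.9e-07), and Eb1, a plus-end binding protein, rose by 0.50. asp rose by 1.49 and mars by 0.62, both spindle proteins at under 5 CPM. asp had 2 to 11 reads per control library and 13 to 37 in REPTOR[ACT]. It reached the low-count cutoff in 1 control library and in 4 REPTOR[ACT] libraries, the group where it is higher. Its count among the genes that rose is thus no support for a change of the group. mars shares 578 exon bases with drk on the other strand, at 59.2 CPM. stai, which encodes the tubulin-binding stathmin, fell by 0.23 on the log2 scale, a call that was lost (adjusted p from 0.0551 to 0.0949) when any single library but control replicate 4 or REPTOR[ACT] replicate 2 was left out. In the severing and depolymerisation list 1 of 7 genes rose (Kat60, the katanin that cuts microtubules, by 0.69) and 2 fell, as kat-60L1 fell by 0.50 and the depolymerising kinesin Klp10A fell by 0.22, the latter a call lost with scaling to the plain library total (adjusted p = 0.0871). Kat60 shares 203 exon bases with Vps37B, at 26.8 CPM, and kat-60L1 129 with Hat1, at 12.6 CPM, each on the other strand.

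Tubulin-modifying enzymes gave no common direction, with 2 of 11 higher and 3 lower (median −0.025), beside 24.8% and 19.4% of all genes. TTLL12 rose by 0.31 and the deacetylase Sirt2 by 0.21, the latter a call lost without control replicate 1 or 2 or REPTOR[ACT] replicate 1 or 4 (adjusted p from 0.0571 to 0.0898). TTLL4B fell by 0.75 and TTLL5 fell by 0.59, both of the family of enzymes that add amino acids to tubulin. Nna1, a carboxypeptidase of the kind that trims them, fell by 0.59. TTLL5 shares 360 exon bases with CG31510 on the same strand, and the part of CG31510 reads in the TTLL5 level was not tested. Among 16 motor genes 6 rose and 3 fell (median 0.044), counts to be read against 24.8% of all genes higher and 19.4% lower. All 6 that rose are among the 10 genes of dynein and dynactin, including robl (0.46), ctp (0.41) and Dlic (0.31). In the same group Lis-1 fell and 3 genes were not called. Of the kinesin-2 genes Klp64D fell by 0.33, Kap3 fell by 0.32 and Klp68D was not called (25.1 and 25.5 CPM, log2 fold change 0.025, adjusted p = 0.777). nudE (0.23) and Lis-1 (−0.16) were near the threshold. The call of nudE was lost without control replicate 1, 3 or 4 or REPTOR[ACT] replicate 1 or 2 (adjusted p from 0.0604 to 0.0916), and that of Lis-1 without any single library but control replicate 1 or REPTOR[ACT] replicate 2 (0.0882 to 0.148). With the replicate number as a block 6 motor genes fell in place of 3, and with scaling to the plain library total 3 rose in place of 6.

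**Figure D5:**
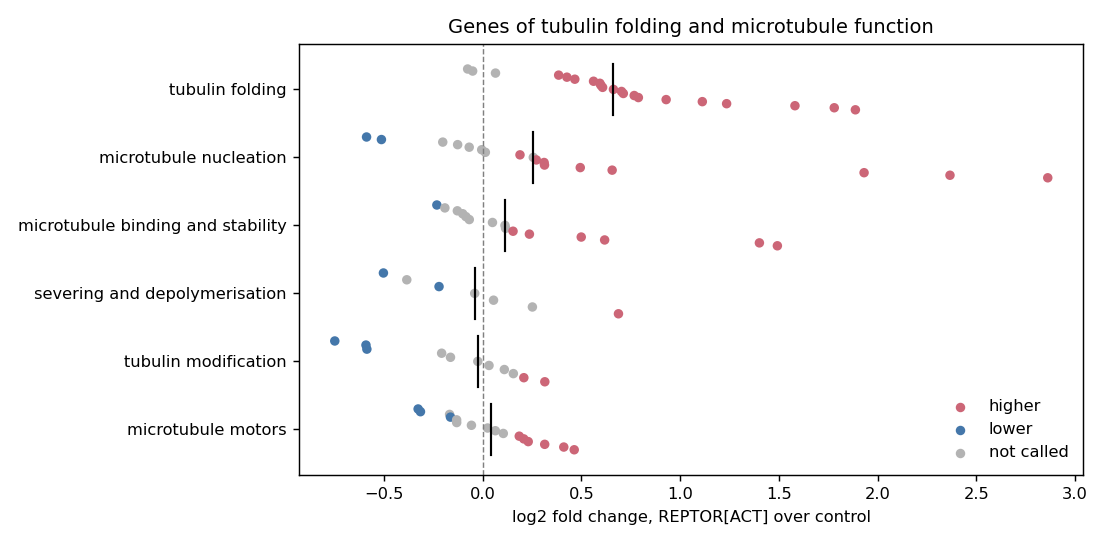
Log2 fold change (x axis, REPTOR[ACT] over control) of each tested gene (points) in 6 lists of tubulin and microtubule function (rows), red where higher, blue where lower and grey where not called, with list medians as black lines. The tubulin folding list has 18 of 21 genes in red and a median of 0.66, and the other lists have medians from −0.040 to 0.26.

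Alpha-tubulin is also a customary reference for qRT-PCR, and the study normalised its thorax measurements to it or to rp49 (RpL32). Here alphaTub84B rose by 0.59 and RpL32 by 0.71 on the log2 scale, from 253 ± 10.04 to 412 ± 6.64 CPM (adjusted p = 1.516e-06). Of 9 customary reference genes 2 rose (RpL32 and RpL4, the latter by 0.63) and 2 fell, since SdhA fell by 1.16 and Gapdh2 fell by 0.44 on that scale. Act5C (0.12), Gapdh1 (0.072), eEF1alpha1 (−0.11), Polr2B (0.18) and Tbp (−0.22) did not pass the test. Their adjusted p-values were 0.314, 0.352, 0.24, 0.0611 and 0.056, and Polr2B and Tbp did pass it with the replicate block (adjusted p = 0.0205 and 0.0458). Over all genes 24.8% rose and 19.4% fell, so 2 of 9 in each direction does not set the reference genes apart. All levels given here are relative to the total of the library, so they give no absolute amount per thorax.

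Since betaTub60D is known from forming muscle, genes of myoblasts and muscle development were set beside it. Of 11 tested, 2 fell and 9 were not called (median 0.011), where 19.4% of all genes fell. The adhesion gene rst fell by 0.32 and the FGF pathway gene stumps fell by 0.26 on the log2 scale, the latter not called with scaling to the plain library total (adjusted p = 0.0707). With the replicate block 2 of them rose. Of the 12 adult muscle markers 5 rose and 2 fell, beside 24.8% and 19.4% of all genes. betaTub60D is also known from chordotonal organs, the stretch-sensing organs built on ciliated neurons. Their marker list had a summed level of 93.9 to 96.6 CPM in control and 68.0 to 71.5 CPM in REPTOR[ACT], with 1 of 13 genes higher and 4 lower. The genes that fell were Tektin-C, a ciliary filament gene, from 7.71 to 0.427 CPM, the intraflagellar transport genes Oseg2, from 16.9 to 3.30 CPM, and Oseg1, from 6.62 to 4.38 CPM, and nompA, from 9.55 to 7.03 CPM, while rempA rose from 5.93 to 8.25 CPM. The channel genes nompC (10.1 and 9.91 CPM), iav (2.27 and 2.33 CPM) and nan (0.640 and 0.614 CPM) were not called. rempA shares 640 exon bases with Tspo, at 156.8 CPM, and Oseg1 695 with Exo70, at 12.01 CPM, each on the other strand. The part of Tspo and Exo70 reads in the rempA and Oseg1 levels was not tested. Nor was the part of chordotonal organs in the betaTub60D level tested.

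By Pearson correlation of log2 CPM over the 8 libraries, the genes most like betaTub60D among 6069 were CG9246 (0.9973), CG7275 (0.9972), Ca-Ma2d (0.9972), sp3 (0.9970) and Archease (0.9970). The group difference carries these values, as all 5 were higher in REPTOR[ACT]. They ranged from a log2 fold change of 0.59 (sp3) to 1.64 (CG7275), below that of betaTub60D.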

How the data were processed

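Poly-A RNA of 8 thorax samples, 4 per group by the labels, was measured by RNA-seq. The authors aligned single 75-base reads with STAR to a FlyBase genome and tested genes with DESeq2, per the study's methods, which also name a KAPA kit and a NextSeq instrument. The labels give other names, a TruSeq kit, a HiSeq2000 instrument and mm10, a mouse build to which fly reads do not belong. How reads were counted (tool, strand, reads that match several genes) was not stated in the labels or methods. The deposited values are expected counts per gene, not scaled for depth. All were multiples of 0.25 (tolerance 1e-06) and were multiplied by 4 to whole reads, on the inference from the values that the authors averaged their 4 pools. The row of unknown identity was 0 in each library.

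Genes with low counts were removed by filterByExpr (minimum 10 reads at median depth, 15 in total), and the rest were tested with edgeR 4.0.16 (TMM, robust quasi-likelihood, no covariate, Benjamini-Hochberg) in R 4.3.3. At these depths 3 reads, which a count of 0 still allows, equal 0.0600 to 0.112 CPM. Shares and ratios were computed from reads or per kb of exon in BDGP6.54, to which betaTub60D was matched by symbol, and tested by exact permutation. No tubulin gene overlaps another annotated gene's exons there. All 206 symbols of the lists were matched.

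Deviations from the group means were correlated between libraries with the same replicate number (0.138, 0.433, 0.220 and 0.137, all above 0.1). Replicates 3 and 4 correlated as highly with a library of another number (0.221 and 0.168), and no label explains what a number marks. By the limit of 0.1 they were taken as pairs, which the main test and the permutation tests of shares do not use. The permutation p-values of shares and ratios thus hold only if the libraries are not paired. No paired test of a share was run. A fit with the replicate block was an alternative, as were other scalings, limma-voom 3.58.1, DESeq2 1.42.0, no filter, unmultiplied values and leaving out each library. On simulated counts of 9850 genes for this comparison the test recovered 56.7% of 67 genes changed by 0.5 on the log2 scale, 96.8% of 62 changed by 1 and 100% of 67 changed by 2. The simulation gave every gene the same biological coefficient of variation, 0.12, and changed a far smaller part of the genes than the 44.2% called here. Its rates are thus not the power for the tubulin genes.

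The tubulin genes and lists were chosen with earlier results of these data known. Named genes were all tubulin genes, up to 4 higher and 4 lower genes per list by size of change, all reference genes, the 5 genes most correlated with betaTub60D (mean of at least 10 CPM) and REPTOR. Other genes were named after their values were seen. Python 3.11.15, scipy 1.17.1, pandas 2.3.3, numpy 2.4.6 and matplotlib 3.10.9 were used.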

Additional observations from a re-analysis of the deposited data

Results flagged for a closer look

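The number of alpha-tubulin reads per beta-tubulin read was 1.398 in REPTOR[ACT] replicate 4 and 1.318 to 1.329 in the other 3 REPTOR[ACT] libraries. Its gap to the nearest of them was 0.855 of the group's whole range, above Dixon's 95% critical value for 4 samples. It is the library with the least betaTub60D (127.3 CPM). Of 84 groups of values looked at this way, 1 stood out so, and chance gives about 1 in 20.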

How the results depend on the processing

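The calls of the 8 tested tubulin genes were the same under all 16 other settings run (15 for alphaTub67C), with log2 fold changes from 3.94 to 4.18 for betaTub60D, 0.56 to 0.63 for alphaTub84B, 0.52 to 0.60 for betaTub56D, 0.54 to 0.59 for betaTub97EF and −0.33 to −0.29 for alphaTub84D. No called result reversed its direction. The replicate block changed no call of a tubulin gene. With it, 23 genes of all lists fell in place of 15. The alpha per beta ratio in REPTOR[ACT] relative to control was 0.776 from reads and 0.819 per kb of exon. gammaTub37C was kept in 4 settings, no filter and the refits leaving out replicate 1 or 3 of the control or 2 of REPTOR[ACT]. In these refits it passed the filter through the REPTOR[ACT] libraries, where it is higher, so their log2 fold changes (1.94 to 2.44) say nothing about stability. Counting shares per unique 75-base start position was not run, since no genome sequence was at hand. Depth limits alphaTub67C, betaTub85D and gammaTub37C, with at most 20 reads per library. Shares per kb of the longest transcript, an alternative chosen after seeing the data, gave 1.47% and 14.5% for betaTub60D.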
